A study of Mus musculus with 12 samples.

Results

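Carbonic anhydrases are zinc enzymes that interconvert carbon dioxide and bicarbonate, and 6 mouse genes of this family, Car2, Car4, Car8, Car12, Car13 and Car5b, were followed in cultured type II alveolar epithelial (AT2) cells. The 6 genes were taken by symbol from a count table of 55450 genes, and all 6 were among the 20612 genes that passed the filter on low counts. Car8 was chosen by its measured difference between the genotypes and Car4 by its measured difference with treatment, so these differences are given as descriptions without a test. The whole family in the mouse holds 16 genes in the list used here, of which 12 passed the filter.

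AT2 cells were isolated from AhRf/f mice, which carry floxed alleles of the aryl hydrocarbon receptor gene, and from Sftpc-Cre;AhRf/f mice. In the latter, Cre recombinase is driven by the promoter of the surfactant protein C gene. Cells in whose lineage that promoter was never active are therefore not targeted. The mice were 6 to 8 weeks old on a C57BL/6 background, and the cells were enriched by removing those that bound antibodies to CD16/32, CD45, Ter119 and Sca-1. The cultures of each genotype received PBS or 50 µg/ml of cockroach extract (CRE) for 24 h, which gave 4 groups of 3 libraries. Nothing in the labels says whether the 3 libraries of a group came from separate mice, so p-values measure the spread between these libraries, which may be technical.

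AT2 cells make surfactant and move ions and fluid across the alveolar surface, and carbonic anhydrases in the lung are best known for speeding the exchange of carbon dioxide and for supplying bicarbonate and protons to transporters. The family members differ mainly in where they sit in the cell. Car2 and Car13 are cytosolic enzymes, Car5b is found in mitochondria, Car4 is anchored to the outer face of the membrane by a lipid, Car12 spans the membrane with its catalytic domain outside, and Car8 is a cytosolic protein of the same fold that lacks the catalytic activity and is known to bind the inositol trisphosphate receptor Itpr1.

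The coding sequence shows how Car8 stands apart from the other 5 genes, and the stretch that encodes the first pair of zinc-binding positions is therefore printed for each. The sequences were read from GENCODE M21 transcripts on GRCm38, 5′ to 3′ along the coding strand, with the codons at those positions in capitals.
Car2 (chr3:14895060-14895083, plus strand, exon 3): atccagtttCACtttCACtggggc
Car13 (chr3:14650697-14650720, plus strand, exon 3): cggcagttcCATttgCACtggggg
Car5b (chrX:163991408-163991431, minus strand, exon 4): aagcagtttCATtttCATtgggga
Car4 (chr11:84964158-84964181, plus strand, exon 4): gtacagttgCACctgCACtggtca
Car12 (chr9:66747638-66747661, plus strand, exon 4): gagcagctgCACttgCACtggggg
Car8 (chr4:8221607-8221630, minus strand, exon 3): tatgaagttAGAtttCACtgggga
In 5 of the 6 genes both capitalised codons are CAC or CAT, which encode histidine. In Car8 the first of them is AGA, an arginine codon, and the second is CAC. Car13 and Car2 lie close together on chromosome 3 in the same orientation, with Car13 at chr3:14641727-14663002 and Car2 at chr3:14886273-14900770. Car8 (chr4:8143362-8239041) holds within it a small processed pseudogene, Gm11799, on its own strand and a miRNA gene on the other, and the other 5 genes overlap no annotated gene.

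The core of the DNA element that the aryl hydrocarbon receptor binds, GCGTG on either strand, was searched for in 300-base promoter windows of RefSeq on GRCm38.p6, which reach from 250 bases before to 50 bases after a start site and were matched for 3 of the 6 genes. The Car5b window held 5 matches, and those of Car4 and Car12 held 0. Of all 32851 windows, 32.4% held at least 1 match. Car2, Car8 and Car13 were not matched.

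The libraries held 68878065 to 80935797 counts each. The counts of Ahr span the whole gene and did not separate the genotypes (44.0 ± 1.10 and 45.2 ± 4.73 counts per 1000000, CPM, with PBS, SD, n = 3), and they do not check the deletion, since reads from outside the floxed part are counted too. Of 5 known target genes of the receptor, 3 (Cyp1b1, Tiparp and Nqo1) passed the test as lower in Sftpc-Cre;AhRf/f cells in each treatment. All 5, Cyp1a1 and Ahrr included, passed averaged over treatments, where same-numbered PBS and CRE libraries of a genotype were taken as independent. Cyp1b1 differed by a log2 fold change of -3.10 (SE 0.27, edgeR adjusted p = 0.000879) with PBS. Markers of AT2 cells were high in all 12 libraries (4497 to 9108 CPM summed over 10 genes). Markers of other epithelial cells were high too, with 3982 to 8106 CPM over 4 club cell genes. The sum over 9 genes of alveolar type I (AT1) cells was 1974 to 4077 CPM. The club sum exceeded the AT2 sum in Sftpc-Cre;AhRf/f replicate 1 with PBS (8106 and 4497) and with CRE (6697 and 4683). It did so narrowly in AhRf/f PBS replicate 3 (7675 and 7641). Leukocyte markers stood apart in replicate 1 of every group, at 245 to 335 CPM summed over 5 genes against 13.6 to 77.4 in the other 8 libraries.

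Levels between genes were compared per length, in the deposited FPKM (fragments per kilobase of transcript, scaled to library depth). In AhRf/f cells with PBS the order was Car2 (21.6 ± 0.861 FPKM, SD, n = 3), Car8 (10.7 ± 0.431), Car13 (8.50 ± 0.534), Car5b (0.969 ± 0.214), Car4 (0.0803 ± 0.0104) and Car12 (0.0566 ± 0.0379). Each of the first 4 genes stood above the next one in all 3 libraries, whereas Car4 and Car12 overlapped. The transcripts of the 3 cytosolic proteins were the most abundant of the 6, and those of both membrane enzymes were near the lower limit of detection. In AhRf/f cells with CRE the FPKM of Car8 (9.24 ± 0.915) and Car13 (8.84 ± 1.22) overlapped.

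**Figure D1:**
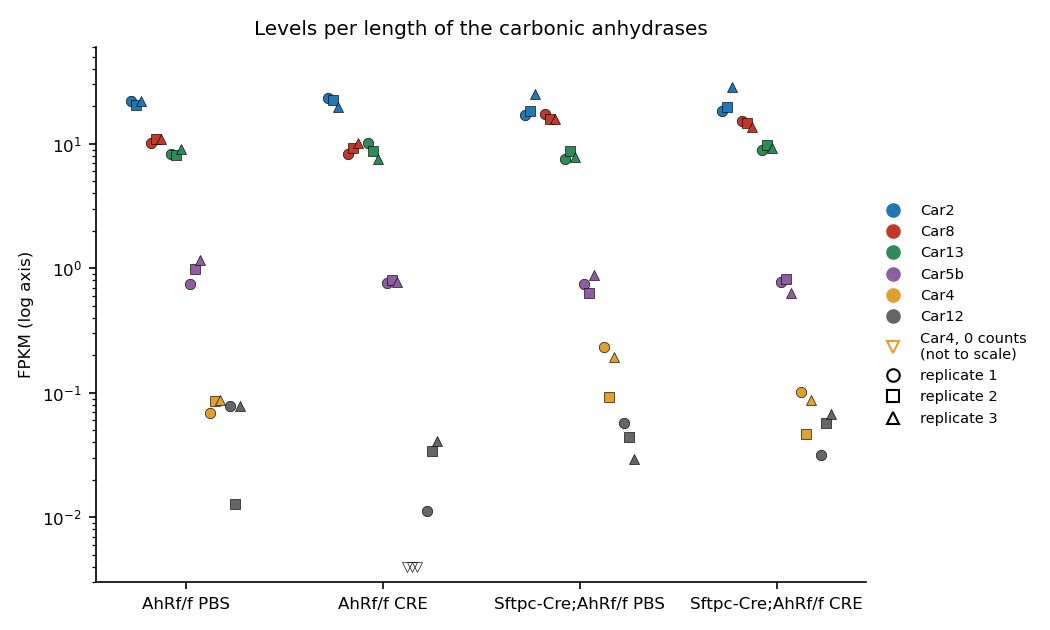
Deposited FPKM of the 6 carbonic anhydrase genes on a log axis, 1 point per library and 4 groups of 3 libraries along the horizontal axis, with marker shape giving the replicate. Car2, Car8 and Car13 lie between 7.61 and 28.5 FPKM, Car5b lies near 1, and the 3 open triangles mark the AhRf/f CRE libraries in which Car4 had 0 counts.

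Car8 lay closer to Car2 in Sftpc-Cre;AhRf/f cells, which again describes the genotype difference for which Car8 was chosen. With PBS, the FPKM of Car8 was 17.4, 15.9 and 16.0 in the 3 Sftpc-Cre;AhRf/f libraries and that of Car2 was 16.9, 18.5 and 25.2, so that the ranges of both genes overlapped, which they did not in AhRf/f cells. The ratio of Car8 to Car2 was 0.460 to 0.531 in AhRf/f and 0.634 to 1.03 in Sftpc-Cre;AhRf/f libraries with PBS. With CRE the ratio was 0.355 to 0.515 in AhRf/f and 0.477 to 0.842 in Sftpc-Cre;AhRf/f libraries, and the lowest of the latter, replicate 3, lay within the AhRf/f range and was the library with the highest Car2 (28.5 FPKM).

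Car8, the member without catalytic activity, had the largest difference between genotypes among the 4 genes above 1 CPM. In AhRf/f cells the CPM of Car8 were 42.9, 47.9 and 47.4 with PBS and 35.0, 40.4 and 44.5 with CRE. The Sftpc-Cre;AhRf/f libraries had 72.4, 67.2 and 68.9 CPM with PBS and 64.2, 63.4 and 60.2 with CRE. All 6 Sftpc-Cre;AhRf/f libraries lay above all 6 AhRf/f libraries. The log2 fold change between genotypes was 0.59 (SE 0.09) with PBS and 0.65 (SE 0.09) with CRE, a 1.51-fold and a 1.57-fold higher level. Since this pattern chose the gene, no test is given. Among the 9 marker lists of lung cell types, the summed level of 1, that of alveolar macrophages, did not overlap between the genotypes with CRE, at 441 to 506 CPM in AhRf/f and 360 to 365 in Sftpc-Cre;AhRf/f libraries. With PBS the summed levels of all 9 lists overlapped between the genotypes. Without Plet1, a gene of that list that was left out after its values were seen, the macrophage sums with CRE were 38.7 to 174 and 47.7 to 123 CPM and overlapped. All 6 neutrophil markers had log2 fold changes below 0 between the genotypes in both treatments (median -1.31 with PBS and -1.11 with CRE, beside -0.0010 and -0.0034 for all genes), and 0 of the 6 passed the edgeR test. The part of any marker list in the Car8 difference was not tested.

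**Figure D2:**
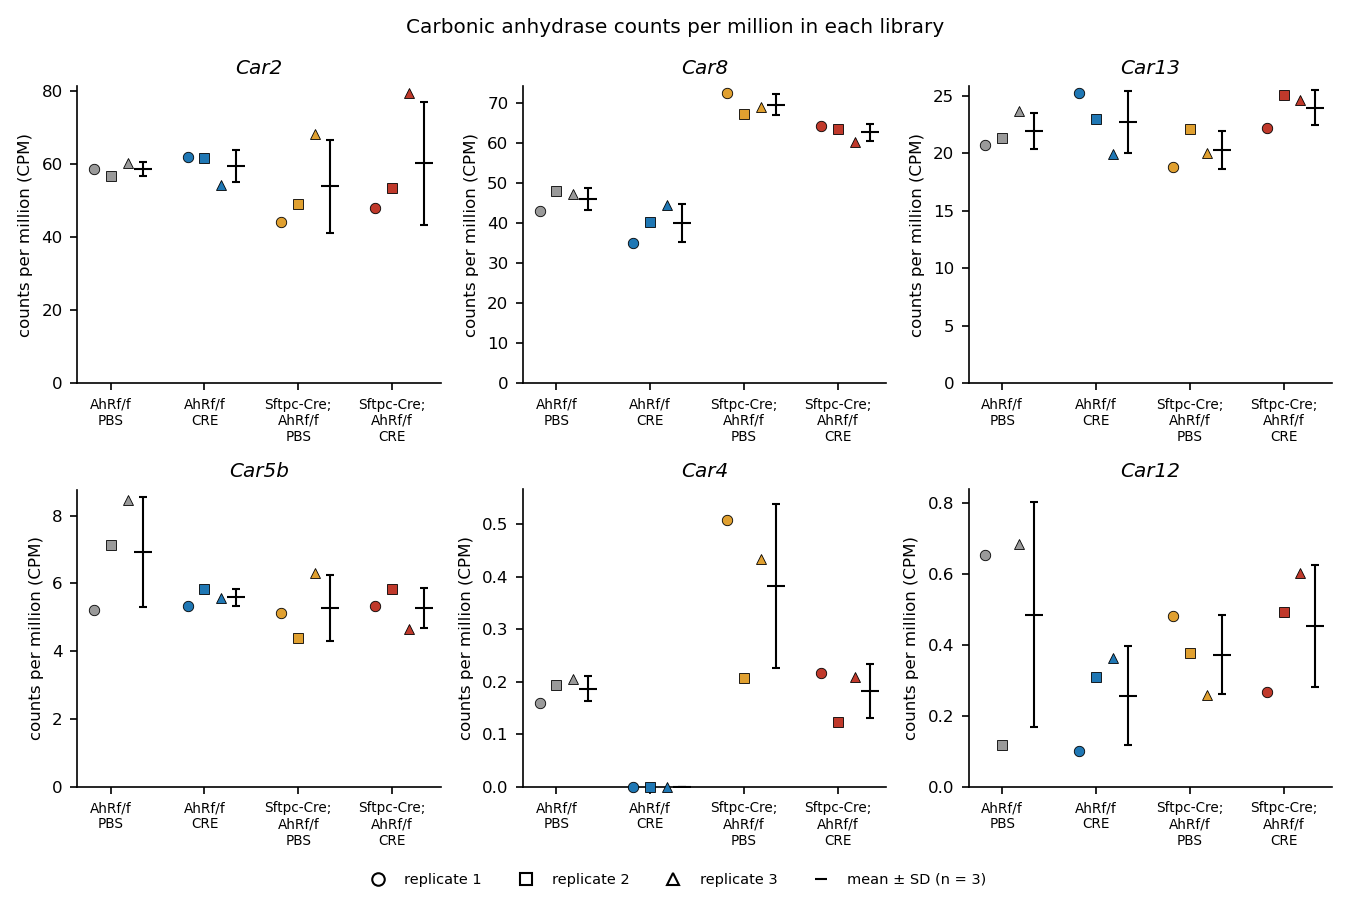
CPM of each of the 6 genes in each library, 1 panel per gene with its own vertical axis from 0, with the 4 groups along the horizontal axis and bars for the mean ± SD of 3 libraries. Car8 separates the genotypes, Car4 is at 0 in the 3 AhRf/f CRE libraries, and the libraries of the other genes overlap between the genotypes.

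Whether Car8 also responded to CRE is a comparison that did not enter its choice. Car8 was lower with CRE than with PBS in each of the 3 same-numbered library pairs of both genotypes. The log2 fold change was -0.20 (SE 0.09, 95% interval -0.40 to -0.01, edgeR adjusted p = 0.505) in AhRf/f cells and -0.15 (SE 0.09, 95% interval -0.34 to 0.04, adjusted p = 0.874) in Sftpc-Cre;AhRf/f cells, and neither passed the threshold of 0.05. Averaged over the genotypes it was -0.18 (SE 0.06, edgeR adjusted p = 0.286). With the replicate block, which pairs same-numbered libraries within a genotype, the edgeR adjusted p was 0.113 in AhRf/f cells. It was 0.314 in Sftpc-Cre;AhRf/f cells and 0.0512 averaged over the genotypes, and none was below 0.05. In Sftpc-Cre;AhRf/f cells the CRE libraries all lay below the PBS libraries, whereas in AhRf/f cells they overlapped. The CRE response of Car8 differed between the genotypes by 0.05 on the log2 scale (95% interval -0.22 to 0.33). All 9 AT1 markers were also lower with CRE in each genotype. Their sum was 2786 to 3597 CPM with PBS and 1974 to 2531 with CRE in AhRf/f cells. In Sftpc-Cre;AhRf/f cells it was 3042 to 4077 and 2318 to 2926. Within a genotype 0 of the 9 passed, and averaged over genotypes 3 did, beside 1.1% of all genes. The part of AT1 markers in the Car8 and Car4 values was not tested.

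Car4, the enzyme anchored to the outer face of the membrane, was scarce in every library. It had 12, 13 and 16 counts in AhRf/f cells with PBS and 0 counts in all 3 AhRf/f libraries with CRE. The Sftpc-Cre;AhRf/f libraries had 40, 17 and 32 counts with PBS and 17, 9 and 16 with CRE. The AhRf/f CRE libraries thus stood below all other 9 libraries, and the Sftpc-Cre;AhRf/f groups touched at 17 counts. A limit of 3 counts per library was taken for a count of 0, which corresponds to 0.0373 to 0.0403 CPM in these libraries and covers counting error only. In AhRf/f cells Car4 was lower with CRE, and its mean CPM with PBS was 4.75-fold the mean of this limit. That ratio leaves out the spread of the PBS libraries, so it is not a strict lower bound. In Sftpc-Cre;AhRf/f cells the log2 fold change was -1.06 (SE 0.57), from 0.383 ± 0.157 to 0.183 ± 0.0520 CPM (SD, n = 3). Both treatment differences belong to the pattern for which Car4 was chosen.

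Between the genotypes, the Car4 counts of all 3 Sftpc-Cre;AhRf/f libraries lay above those of the 3 AhRf/f libraries in each treatment. With PBS the log2 fold change was 1.03 (SE 0.57, 95% interval -0.27 to 2.33, edgeR adjusted p = 0.695), which did not pass the threshold. With CRE the level was higher in Sftpc-Cre;AhRf/f cells, where the mean CPM was 4.66-fold the mean of the same limit of 3 counts per library. That ratio again leaves out the spread of the higher group. This difference rests on the 3 AhRf/f CRE libraries at 0 counts for which Car4 was chosen, so it is given without a test, as is the difference averaged over treatments.

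Car4 is also known in lung cells other than AT2 cells, namely a kind of capillary endothelial cell and alveolar macrophages. Siglecf, a surface receptor that defines alveolar macrophages in the lung, had 251, 19 and 21 counts in AhRf/f cells with PBS and 0, 0 and 4 with CRE. In Sftpc-Cre;AhRf/f cells it had 210, 57 and 75 counts with PBS and 15, 4 and 27 with CRE, so that Siglecf, like Car4, had its lowest counts in the AhRf/f CRE libraries, where replicate 3 tied with 1 Sftpc-Cre;AhRf/f CRE library at 4. Of the 12 macrophage genes, 5 (Siglecf, Ear2, Mrc1, Itgax and Krt79) were lower in CPM with CRE in all 6 same-numbered pairs, as was Car4, and 2 (Adgre1 and Plet1) were higher in all 6. The share of all genes that were lower in all 6 pairs was not counted, so the 5 of 12 cannot be set against it. Siglecf was the 1 gene of the 12 for which the AhRf/f CRE libraries were the lowest 3 in CPM. The mannose receptor Mrc1 had 701, 106 and 148 counts and the chitinase-like protein Chil3 had 2564, 1153 and 505 counts in the AhRf/f CRE libraries, in which Car4 was at 0. The summed level of the 12 macrophage genes was higher with CRE (441 to 506 CPM in AhRf/f and 360 to 365 in Sftpc-Cre;AhRf/f cells) than with PBS (170 to 323 and 160 to 258). Of the 11 tested genes of the list, 6 were lower and 5 higher with CRE in AhRf/f cells, and 1, Plet1, passed the test in each genotype, being higher with CRE. Without Plet1 the sum was 37.7 to 190 with PBS and 38.7 to 174 with CRE in AhRf/f cells. Replicate 1 had the highest macrophage sum of each PBS group, 323 CPM in AhRf/f and 258 in Sftpc-Cre;AhRf/f cells. The 2 groups went opposite ways in Car4. In AhRf/f cells replicate 1 had 12 Car4 counts, the fewest of the 6 PBS libraries, next to 13 in replicate 2. In Sftpc-Cre;AhRf/f cells it had 40, the most.

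Endothelial genes were present throughout. Their sum over 12 genes was 61.0 to 113 CPM in AhRf/f cells with PBS and 53.7 to 98.7 with CRE, and none of the 12 was at 0 in any library. With CRE against PBS, 9 of the 12 were lower and 3 higher in each genotype, and 0 passed the edgeR test. The part of other cell types in the Car4 values was not tested, and fewer cells of a type and less RNA per cell cannot be told apart in these bulk libraries.

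**Figure D3:**
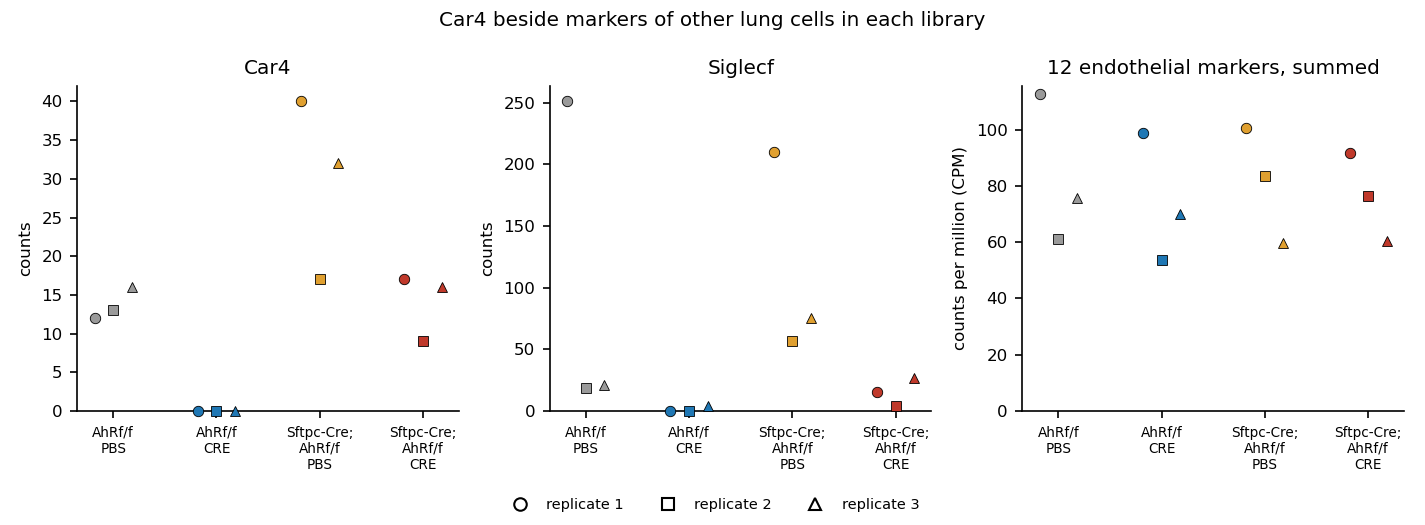
Counts of Car4 (left), counts of the alveolar macrophage gene Siglecf (middle) and summed CPM of 12 endothelial markers (right), 1 point per library by group, with marker shape giving the replicate. Car4 is lowest in the AhRf/f CRE libraries, and so is Siglecf apart from a tie at 4 counts with 1 Sftpc-Cre;AhRf/f CRE library. Siglecf was the 1 gene of the 12 macrophage genes with this order in CPM. Endothelial markers lie between 53.7 and 98.7 in the AhRf/f CRE libraries and between 61.0 and 113 in the AhRf/f PBS libraries.

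Car2, the most abundant member and a cytosolic enzyme of high catalytic rate, had no genotype or treatment difference that passed the test. Its CPM were 58.7, 56.7 and 60.4 in AhRf/f cells with PBS and 62.0, 61.7 and 54.3 with CRE. The values in Sftpc-Cre;AhRf/f cells were 44.1, 49.1 and 68.3 with PBS and 47.9, 53.3 and 79.4 with CRE. The Sftpc-Cre;AhRf/f libraries were more widely spread, and with either treatment replicate 3 lay above and replicates 1 and 2 below all 6 AhRf/f libraries. The summed AT2 markers of these Sftpc-Cre;AhRf/f libraries had the same order, with 4497, 6313 and 8734 CPM with PBS and 4683, 6397 and 9108 with CRE for replicates 1, 2 and 3. In the 6 AhRf/f libraries that sum stayed between 6699 and 8610. The part of AT2 marker content in the Car2 values was not tested. Red blood cells are rich in Car2, and the sum over 7 erythroid markers, of which 2 passed the filter, was 1.33 to 3.67 CPM in the 12 libraries. The part of red blood cells in the Car2 values was not tested. The log2 fold change of Car2 between genotypes was -0.12 (95% interval -0.55 to 0.30) with PBS and 0.02 (95% interval -0.40 to 0.45) with CRE. With CRE against PBS it was 0.02 (95% interval -0.41 to 0.44) in AhRf/f cells and 0.16 (95% interval -0.26 to 0.59) in Sftpc-Cre;AhRf/f cells.

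**Figure D4:**
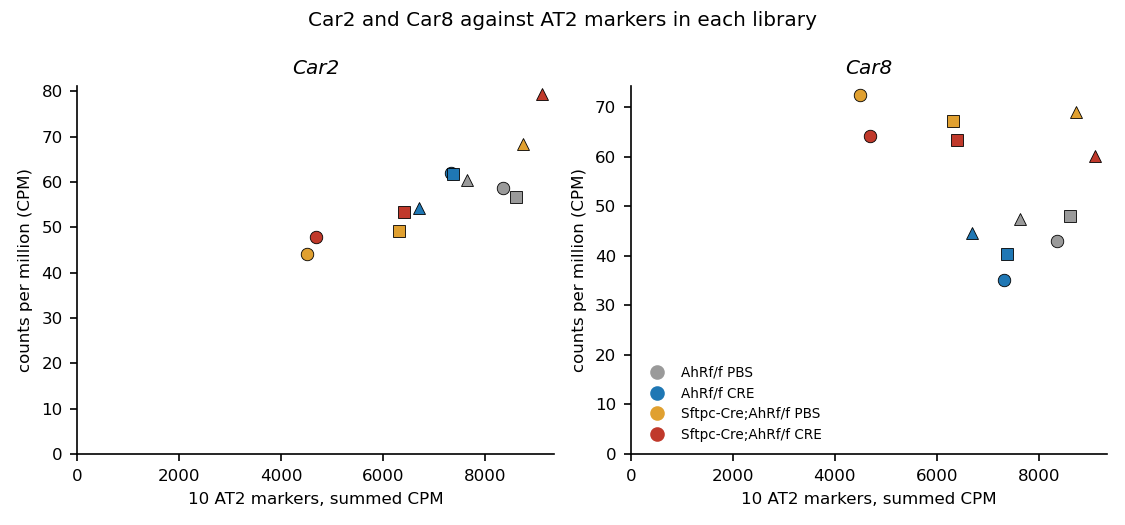
CPM of Car2 (left) and Car8 (right) against the summed CPM of 10 AT2 markers, 1 point per library, coloured by group, with marker shape giving the replicate (circle 1, square 2, triangle 3). Car2 is lowest in the libraries with the lowest sums, 4497 and 4683, and highest in the library with 9108. Car8 is higher in every Sftpc-Cre;AhRf/f library than in any AhRf/f library. Each Sftpc-Cre;AhRf/f sum lies below or above the AhRf/f range of 6699 to 8610, so Car8 cannot be compared between genotypes at like sums.

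Car13, the second cytosolic enzyme of the set, was steady. Its CPM were 21.9 ± 1.56 (SD, n = 3) in AhRf/f cells with PBS, 22.7 ± 2.68 with CRE, 20.3 ± 1.66 in Sftpc-Cre;AhRf/f cells with PBS and 24.0 ± 1.54 with CRE. In Sftpc-Cre;AhRf/f cells the 3 CRE libraries (22.2 to 25.1) lay just above the 3 PBS libraries (18.8 to 22.1), with a log2 fold change of 0.24 (SE 0.11, 95% interval -0.01 to 0.48, edgeR adjusted p = 0.798). In AhRf/f cells the treatment groups overlapped, with a log2 fold change of 0.05 (95% interval -0.19 to 0.30). The difference of these responses between the genotypes was 0.19 (95% interval -0.16 to 0.53) on the log2 scale.

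Car5b, the mitochondrial enzyme, held 354 to 656 counts per library. Its highest libraries were replicates 2 and 3 of AhRf/f cells with PBS (7.13 and 8.45 CPM), and replicate 1 of that group (5.23) lay among the other 9 libraries (4.39 to 6.31). The log2 fold change between genotypes was -0.40 with PBS (SE 0.21, 95% interval -0.85 to 0.06, edgeR adjusted p = 0.656) and -0.08 with CRE (95% interval -0.54 to 0.37). With CRE against PBS it was -0.31 (95% interval -0.77 to 0.15) in AhRf/f cells and 0.00086 (SE 0.21, 95% interval -0.46 to 0.46) in Sftpc-Cre;AhRf/f cells.

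Car12, the transmembrane enzyme, had 8 to 53 counts per library and was as variable within groups as between them. It had 49, 8 and 53 counts in AhRf/f cells with PBS and 8, 23 and 27 with CRE. It had 38, 31 and 19 counts in Sftpc-Cre;AhRf/f cells with PBS and 21, 36 and 46 with CRE, and all 4 groups overlapped. The 95% intervals of its log2 fold changes reached from -2.42 to 0.58 for CRE against PBS in AhRf/f cells and from -1.86 to 1.10 between genotypes with PBS. A 2-fold lower level lies within both intervals.

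**Figure D5:**
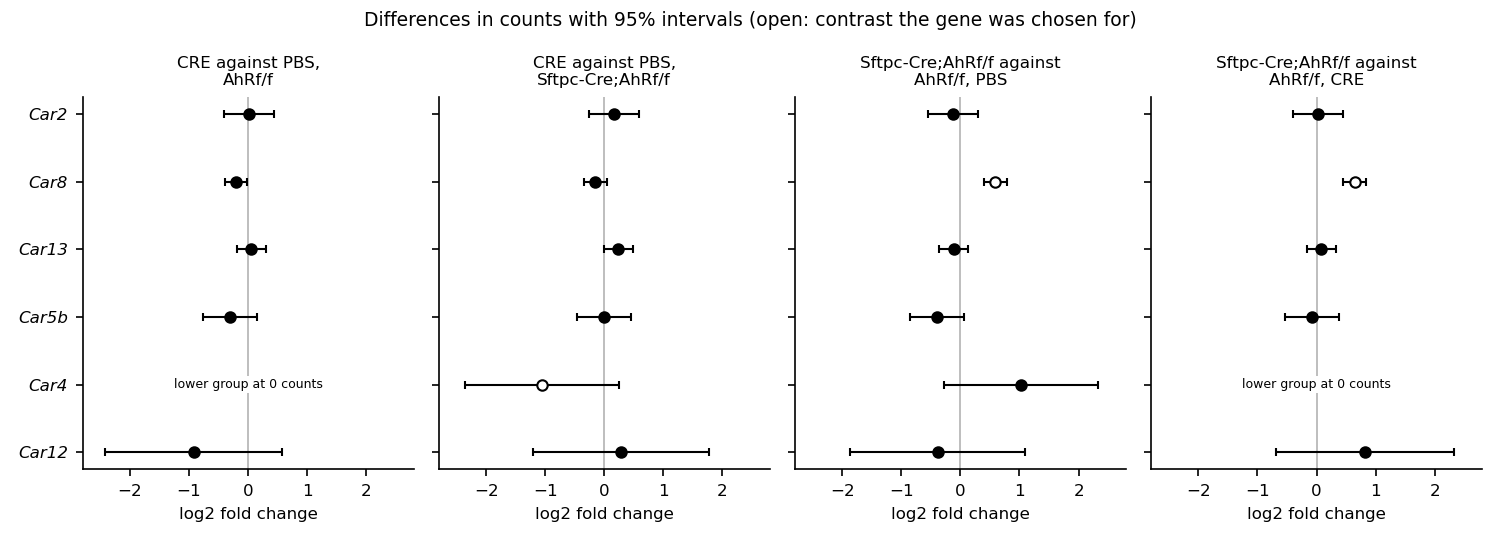
Log2 fold changes of the 6 genes in counts, with 95% intervals from the edgeR fit of all 12 libraries, in 4 panels for CRE against PBS in each genotype and for the genotypes in each treatment. Open points mark contrasts for which a gene was chosen, and for Car4 no point is drawn where the lower group had 0 counts. Of the filled points, all have intervals that reach 0 except Car8 for CRE against PBS in AhRf/f cells, whose adjusted p was 0.505.

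Car4 was left out of every contrast that contains its 3 libraries at 0 counts or compares the treatments, and Car8 out of those between genotypes. With CRE against PBS, 0 of 5 passed in AhRf/f cells, where 0.233% of all 20612 genes passed, and 0 of 5 in Sftpc-Cre;AhRf/f cells, where 0.262% did. For CRE against PBS in Sftpc-Cre;AhRf/f cells the groups of 2 of these 5 genes, Car8 and Car13, did not overlap, against 11.8% of all genes, and in AhRf/f cells this held for 0 of 5 against 16.5%. Between genotypes, 0 of 5 passed with PBS (0.15% of all genes) and 0 of 4 with CRE (0.17%). The groups did not overlap between genotypes for 1 of 5, Car4, with PBS, against 14% of all genes, and for 0 of 4 with CRE, against 11%. Averaged over the other factor, 0 of 5 passed for treatment (1.1% of all genes) and 0 of 4 for genotype (0.631%). For the difference of the CRE response between genotypes, 0 of the 4 genes counted passed. For that difference 0% of the 20612 genes passed in edgeR, of which 763 had an unadjusted p under 0.05, and DESeq2 called 23.

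Of the 10 family genes not in the set, 6 passed the filter (Car6, Car7, Car9, Car11, Car14 and Car15) and 0 of these 6 were called in any of the 7 comparisons. The secreted enzyme Car6 was at 1.29 to 2.16 CPM as group means. The median log2 fold change of the 6 genes was -0.35 for CRE against PBS in AhRf/f and -0.11 in Sftpc-Cre;AhRf/f cells, and -0.24 between genotypes with PBS and 0.02 with CRE, where the medians of all genes were -0.0012, -0.0027, -0.0010 and -0.0034. Of the 4 genes under the filter, Car10 had 0 counts in all libraries. Car3, a muscle and fat enzyme, had 20 and 27 counts in 2 Sftpc-Cre;AhRf/f PBS libraries and 4 counts in 1 Sftpc-Cre;AhRf/f CRE library, and 0 in the other 9.

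Carbonic anhydrases work with transporters that carry bicarbonate and protons across membranes, and 19 of 23 such genes were tested. With CRE against PBS, 1 of the 19 passed in each genotype, Slc26a4 (pendrin, an exchanger of chloride for bicarbonate). Of all genes, 0.233% passed in AhRf/f and 0.262% in Sftpc-Cre;AhRf/f cells. The list was drawn up with earlier results of these data known. Slc26a4 had 67, 64 and 71 counts in AhRf/f cells with PBS and 384, 568 and 595 with CRE. In Sftpc-Cre;AhRf/f cells it had 86, 151 and 170 counts with PBS and 1025, 1587 and 2243 with CRE, so that the CRE libraries of each genotype lay far above its PBS libraries. The log2 fold change was 2.88 (SE 0.36, edgeR adjusted p = 0.00902) in AhRf/f cells and 3.61 (SE 0.37, adjusted p = 0.00393) in Sftpc-Cre;AhRf/f cells. The first adjusted p was 0.0519 to 0.0708 without any 1 of the 3 AhRf/f PBS libraries, and the second was 0.0582 when the 6 libraries of that genotype were fitted alone.

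Averaged over genotypes, a second transporter rose with CRE, the sodium bicarbonate cotransporter Slc4a4 (log2 fold change 0.66, SE 0.12, edgeR adjusted p = 0.0246). Its CPM were 87.3 ± 16.7 (SD, n = 3) with PBS and 152 ± 20.9 with CRE in AhRf/f cells, and 103 ± 20.9 and 148 ± 9.14 in Sftpc-Cre;AhRf/f cells. This call was lost, with an adjusted p of 0.0540 to 0.0760, without any 1 of 7 libraries (AhRf/f PBS replicates 1 and 2, AhRf/f CRE replicates 2 and 3, Sftpc-Cre;AhRf/f PBS replicate 2 and Sftpc-Cre;AhRf/f CRE replicates 1 and 3). Between genotypes, 0 of the 19 passed within a treatment and 1, Slc26a4, averaged over treatments (log2 fold change 1.29, SE 0.24, edgeR adjusted p = 0.0438), and the latter was between 0.0870 and 0.126 without any 1 of 10 of the 12 libraries, all but replicate 1 of each Sftpc-Cre;AhRf/f group. It was also lost in limma-trend (adjusted p = 0.0555) and without a filter on low counts (edgeR adjusted p = 0.0578). The averaged fit took same-numbered PBS and CRE libraries of a genotype as independent. Of all genes, 1.1% passed for treatment averaged over genotypes and 0.631% for genotype averaged over treatments. The median log2 fold change of the 19 genes was 0.06 for CRE against PBS in AhRf/f cells and 0.03 in Sftpc-Cre;AhRf/f cells, beside -0.0012 and -0.0027 for all genes.

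The genes of the calcium store to which Car8 is tied through Itpr1 were also listed. All 8 were tested (Itpr1, Itpr2, Itpr3, Atp2a2, Atp2a3, Stim1, Stim2 and Orai1), and 0 of 8 passed in any of the 7 comparisons. Itpr1, the receptor that Car8 binds, was at 49.8 ± 3.40 CPM (SD, n = 3) in AhRf/f and 64.0 ± 9.80 in Sftpc-Cre;AhRf/f cells with PBS, and at 51.1 ± 2.96 and 54.1 ± 7.20 with CRE. Both receptor phosphatases with a carbonic anhydrase-like domain, Ptprg and Ptprz1, were tested and 0 of 2 passed in any comparison.

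The genes whose log2 CPM followed each member most closely over the 12 libraries were named from 14542 other genes with a mean of at least 1 CPM. For Car8 these were Mcam (Pearson r = 0.962), Adi1 (0.961) and Phtf1 (0.959). For Car2 they were Carhsp1 (r = 0.946), Rnf11 (0.943) and Cyp51 (0.942). The closest genes to Car13 and Car5b reached lower values, 0.876 for 1700001L05Rik and 0.862 for D17H6S53E. These values describe the 12 libraries, which share groups and replicate numbers, and carry no test. Car4 and Car12 were too scarce for the measure.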

How the data were processed

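RNA-seq counts of the 12 libraries were used as the authors deposited them. Libraries were made by the authors with a stranded mRNA kit, and the submitters' processing notes name STAR 2.7.2b, Partek, Salmon and GRCm38; the study's methods name RefSeq for annotation. The deposited table carries Ensembl gene IDs, and how its whole-number counts were reached is not given in the sources used here. The deposited FPKM values, made by the authors from the counts, served only to compare levels between genes and hold 0.0001 where a count is 0. Columns of the authors' own comparisons were not used.

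Gene IDs were matched to symbols in GENCODE M21. Counts of all 12 libraries were fitted together as 4 group means with edgeR 4.0.16 in R 4.3.3 (TMM scaling, filterByExpr at a minimum count of 10, quasi-likelihood test, Benjamini-Hochberg over 20612 genes, call at an adjusted p below 0.05). Counts per 1000000 (CPM) use TMM-scaled library totals. Alternatives were DESeq2 1.42.0, limma 3.58.1 (limma-trend), the study's rule (unadjusted p below 0.05 in limma-trend and absolute log2 fold change above 0.5), another scaling, other filters, only the libraries compared, a replicate block, leaving out each library, and, chosen after seeing the data, leaving out replicate 1 of all groups. The script was tested on simulated data.

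Same-numbered libraries deviated together from their group means between treatments (correlations of 0.418 to 0.729 in AhRf/f and 0.325 to 0.589 in Sftpc-Cre;AhRf/f cells over 14543 genes). Between genotypes they did not do so throughout (-0.029 to 0.420), though replicate 1 reached 0.420 with PBS and 0.413 with CRE. The numbers were therefore taken to pair libraries within a genotype. The pairing comes from this check, not from a label. For comparisons between genotypes, the replicate block instead joined same-numbered libraries across the genotypes. The fit of group means takes paired libraries as independent, so p-values of genotype differences averaged over treatments may be too small. The 6 genes, the gene lists and the markers were chosen with earlier results of these data known. Named genes are the 6 members, family genes past the filter, called or function-defining genes of the lists, and the 3 genes closest to each member above 1 CPM.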

Additional observations from a re-analysis of the deposited data

How the results depend on the processing

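For the 7 comparisons, the count of called members was 0 in 5 under the alternatives that could be run. The other 2 were planned with Car4 counted, and Car4 is the member called in each; its values there rest on the libraries for which it was chosen, so the call supports nothing. Between genotypes with CRE that count was 1. It was 0 with the replicate block, which here joins same-numbered libraries across genotypes, and 0 without replicate 1 of all groups. Leaving out 1 library at a time gave 0 to 1. Averaged over treatments it was 1, and 0 without replicate 1 of all groups, with 0 to 1 over single libraries left out. No count is given under DESeq2, which gave Car4 no adjusted p, or under the filter of 1 CPM and, with CRE, the fit of only the libraries compared, in which it was not tested. The replicate block changed no other call. Of 847 alternative values for single genes, 765 stayed on their side of the threshold, 44 lost a call (of Car4, Slc26a4 or Slc4a4), 37 small uncalled values changed sign and 1 moved, the log2 fold change of Car8 between genotypes with CRE, which was 0.54 without replicate 1 of all groups. Those of Car2 between genotypes with CRE were -0.012 in limma-trend, -0.017 with the block and -0.229 to 0.161 over libraries left out. Those of Car5b with CRE against PBS in Sftpc-Cre;AhRf/f cells were -0.0037 in DESeq2, -0.0042 with RLE scaling, -0.010 with the filter of 1 CPM and -0.114 to 0.150 over libraries left out. Without replicate 1 of all groups the values were -0.011 (Car2) and -0.068 (Car13) for CRE in AhRf/f cells, -0.037 (Car5b) for CRE in Sftpc-Cre;AhRf/f cells, 0.0080 (Car2) for genotype with PBS, 0.258 (Car12) for CRE averaged over genotypes, and 0.098 (Car2) and 0.058 (Car13) for genotype averaged over treatments. Ranges over libraries left out were, for Car2, -0.014 to 0.079 (CRE, AhRf/f), -0.088 to 0.369 (CRE, Sftpc-Cre;AhRf/f), -0.330 to 0.0031 (genotype, PBS), -0.107 to 0.351 (difference of responses), -0.035 to 0.194 (CRE, averaged) and -0.176 to 0.020 (genotype, averaged). For Car13 they were -0.032 to 0.138 (CRE, AhRf/f), -0.0087 to 0.161 (genotype, CRE) and -0.059 to 0.026 (genotype, averaged), for Car12 -0.010 to 0.384 (genotype, averaged), for Car5b -0.149 to 0.00052 (genotype, CRE) and for Car8 -0.032 to 0.139 (difference of responses). The cause was not tested. Car4 and Car12 had under 60 counts in every library, and the part of depth in their spread was not tested.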
